A study of Homo sapiens with 2 samples.

Results

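The genes described here are 51 genes of DNA replication and of the passage from G1 into S phase, taken by gene symbol from a list of members. All 51 had an FPKM value (fragments per kilobase of gene, scaled to library size), which the deposited files give for 13924 genes, and they are 51 of the 61806 Ensembl genes in the count table. They were read in HEL, a human erythroleukemia cell line labelled WT. HEL cells were kept for 24 h in 0.5% DMSO, the vehicle, or with L1 at 1 µM, a derivative of 3,3′-diindolylmethane. RNA was captured on mRNA beads, and 1 library per condition was sequenced.

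DNA replication starts at origins. The origin recognition complex with CDC6 and CDT1 loads the MCM2-7 helicase in G1, and geminin blocks CDT1 afterwards so that each origin is used once per cycle. In S phase CDC45 and the GINS complex join the helicase, and polymerase alpha with primase lays down primers. Polymerases delta and epsilon then copy both strands with the PCNA clamp, and ribonucleotide reductase and thymidylate synthase supply deoxynucleotides. Many of these genes are transcribed under the control of E2F factors, which are released from the retinoblastoma protein late in G1, so their mRNAs are widely used as markers of cycling cells.

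The libraries held 32556872 counts (DMSO) and 27135647 counts (L1), and 9 of the 10 erythroid and megakaryocytic markers examined had at least 10 counts in both libraries, whereas PF4 had 0 in both. Of 10 markers of lymphoid, epithelial, fibroblast and liver cells, 7 were at 0 in both libraries, COL1A1 and COL1A2 had at most 5 counts, and only CD79A was above that, with 113 counts with DMSO and 60 with L1. Counts were scaled by edgeR's TMM method. Each log2 ratio is L1 over DMSO, and the range given after it is its exact 95% interval (Clopper-Pearson), which covers counting error only. Since each condition had a single library, no difference has a replicate check, and no test or p-value is given.

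The replication genes were lower in the L1 library almost throughout. Of the 51 genes, 45 had a log2 ratio below 0 and 6 above, against 50.4% below 0 among the 18123 genes that reached 10 counts in either library. The median log2 ratio was -0.30 over the 51 genes and -0.0040 over those 18123 genes. The interval lay wholly below 0 for 41 genes (background 28.6%), wholly above 0 for 5 genes (background 26.8%), and included 0 for the remaining 5. The differences were small in size. Only POLD3 and E2F8 were at least 2-fold lower (background 4.83%) and only GINS1 was at least 2-fold higher (background 7.12%). At 1.5-fold, 5 genes were lower (background 11.4%) and 2 were higher (background 13.8%). The shift was broad, with small differences for most of the genes.

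The 51 genes are well expressed, and each had at least 300 counts in both libraries. Among the 9314 genes that reach this depth, 53.2% had a log2 ratio below 0, 37.7% had an interval wholly below 0 and 31.9% wholly above, and the median was -0.022. At this depth 1.41% of genes were at least 2-fold lower and 1.56% at least 2-fold higher, beside 2 and 1 of the 51 genes. At 1.5-fold the shares were 5.31% and 4.80%, beside 5 and 2 of the 51 genes. Against genes of like depth, the share of the 51 genes that was lower was thus above the background at both thresholds, though on few genes. The 51 genes took 0.704% of all counts in DMSO and 0.587% in L1, and their summed FPKM was 1862 in DMSO and 1510 in L1. In bulk RNA, fewer cells in S phase and less of these mRNAs in each cell cannot be told apart.

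**Figure D1:**
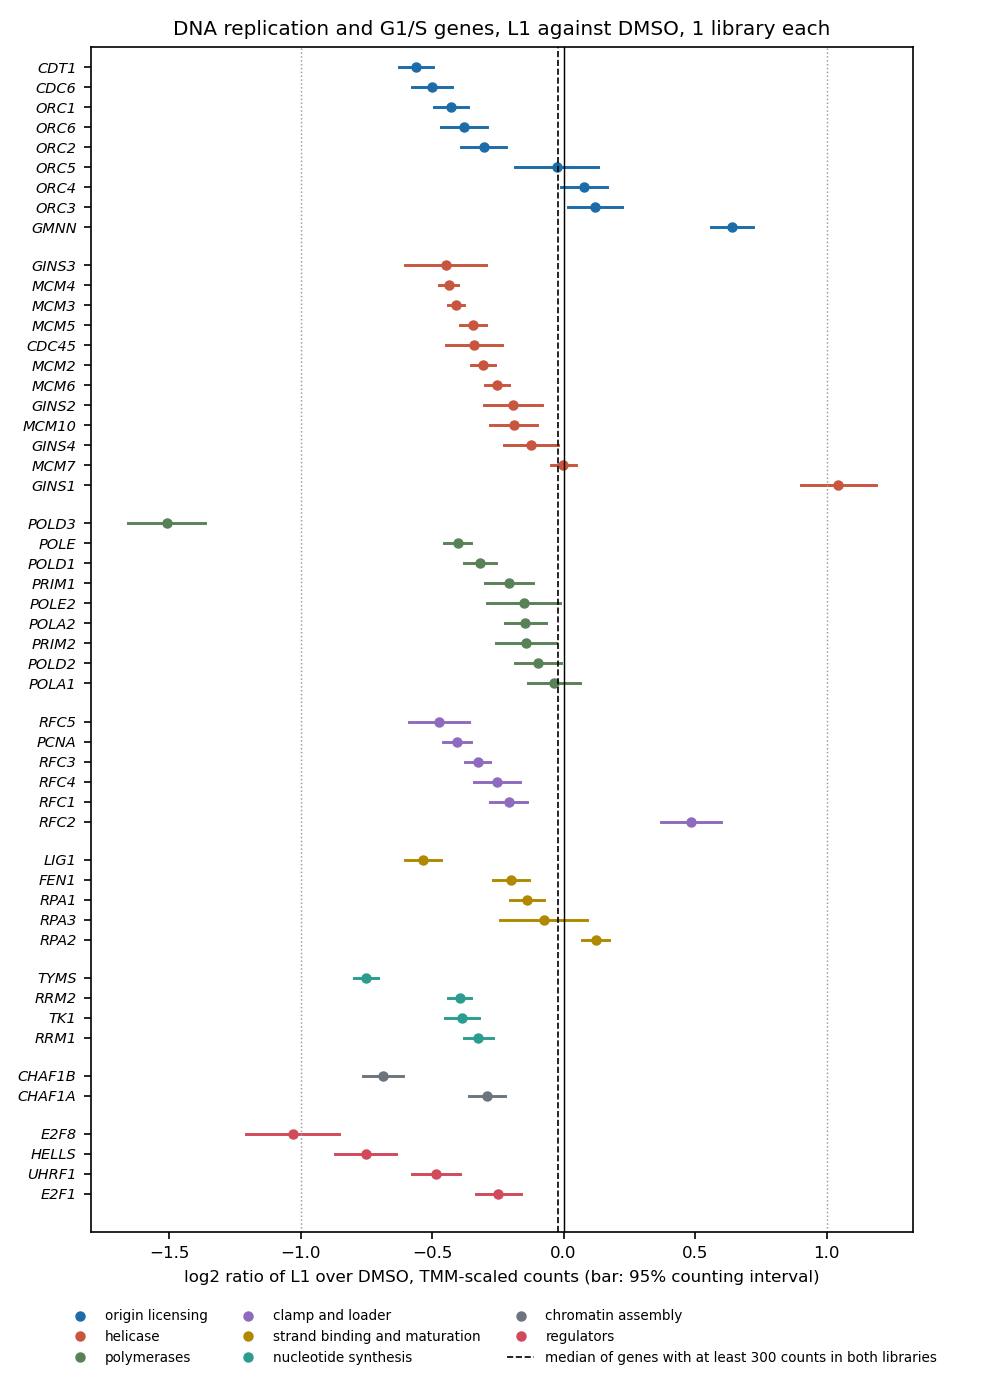
Log2 ratio of L1 over DMSO (x axis, TMM-scaled counts) for the 51 genes, grouped by role, with points for the ratio and bars for the 95% counting interval. The dashed line is the median of genes with at least 300 counts in both libraries, the dotted lines mark 2-fold, and 45 points lie below 0 while GINS1, GMNN and RFC2 stand apart on the right.

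Promoter sequence was not read when the genes were chosen, but many of them are known to be under E2F control. A high share of E2F-type words is therefore not an independent result, and the windows of all genes were not matched for base composition. RefSeq windows of GRCh38.p14 from 250 bases before to 50 bases after a transcription start were found for 44 of the 51 genes, in 57 windows; MCM4, MCM5, GINS4, POLD3, RPA2, RPA3 and E2F8 were not matched. They were searched on both strands for 3 words of the E2F type, TTTCCCGC, TTTGGCGC and TTTCGCGC. At least 1 word was present in 23 of the 57 windows (40.4%), against 2.74% of all 35116 windows. TTTCCCGC was in 12 windows of these genes (21.1%, against 1.63% of all), TTTGGCGC in 9 (15.8%, against 0.652%) and TTTCGCGC in 6 (10.5%, against 0.515%). A forward TTTGGCGC and a reverse TTTCGCGC can share 4 bases, as they do in the MCM6 promoter, and some windows of a gene overlap. A matching word is a description of the sequence and does not show that a factor bound it.

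The stretches printed here are shown because they place the same words beside genes with unlike log2 ratios, from HELLS, TYMS, CDT1 and UHRF1, which were lower, to GMNN, which was higher. Each reads 5′ to 3′ on the strand of the gene, lies before the RefSeq start, and has the E2F-type word (or its reverse complement) in capitals.
HELLS, chr10:94545728-94545787, plus strand: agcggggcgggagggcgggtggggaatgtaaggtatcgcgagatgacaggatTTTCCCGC
TYMS, chr18:657603-657632, plus strand: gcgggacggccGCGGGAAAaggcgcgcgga
CDT1, chr16:88803743-88803772, plus strand: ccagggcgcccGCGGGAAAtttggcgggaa
UHRF1, chr19:4909471-4909500, plus strand: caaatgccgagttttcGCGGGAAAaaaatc
MCM3, chr6:52284883-52284942, minus strand: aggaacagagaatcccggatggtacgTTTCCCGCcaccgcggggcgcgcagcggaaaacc
PCNA, chr20:5126648-5126707, minus strand: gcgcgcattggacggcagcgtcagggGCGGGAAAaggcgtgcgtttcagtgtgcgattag
MCM6, chr2:135876496-135876555, minus strand: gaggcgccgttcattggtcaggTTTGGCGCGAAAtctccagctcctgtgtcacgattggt
MCM7, chr7:100101398-100101427, minus strand: ccggtcacgtggggggcgacgTTTCGCGCc
ORC3, chr6:87590105-87590134, plus strand: ctgcagccgcgagggcgcGCGGGAAAtccc
GMNN, chr6:24775307-24775366, plus strand: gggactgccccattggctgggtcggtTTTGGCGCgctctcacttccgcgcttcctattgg
The 22 genes with a word had a median log2 ratio of -0.32 (range -0.75 to 1.04), and 19 of them were below 0. The 22 genes whose windows held no word had a median of -0.27 (range -0.69 to 0.48), and 20 of them were below 0. Genes with and without a word were thus lower alike in number, and GINS1, GMNN and ORC3, which were higher with L1, were among the genes with a word. Only these exact words in these windows were searched, so a gene without a word may still have an E2F site. Control by E2F was not tested by this split.

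**Figure D2:**
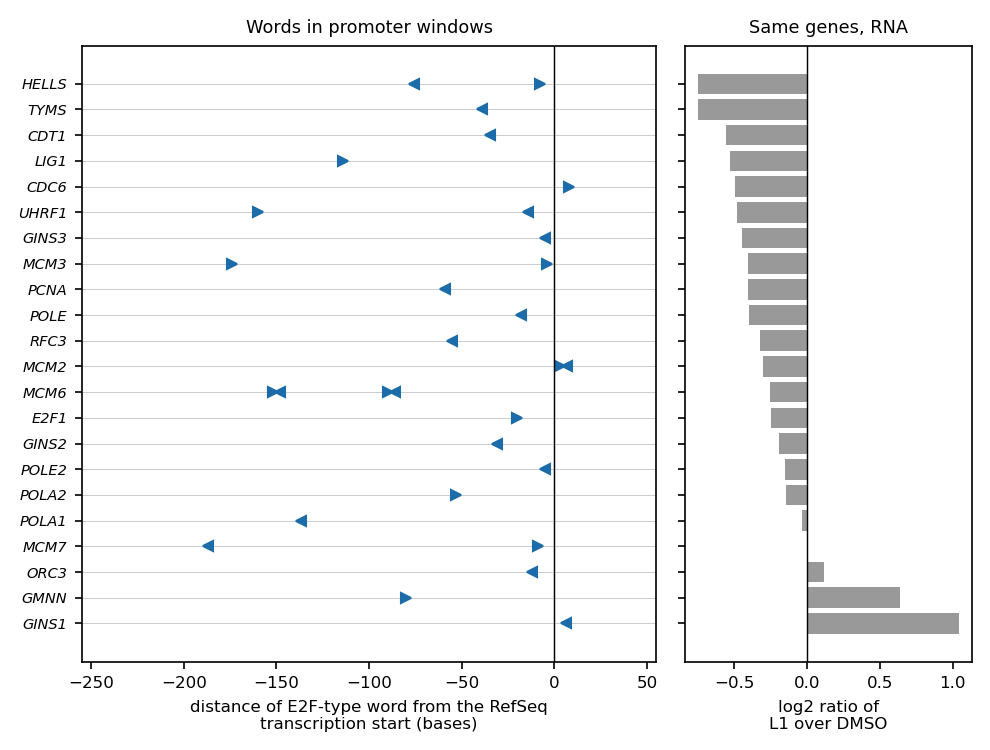
Left, distance in bases of each E2F-type word from its RefSeq start for the 22 genes with a word (arrowheads give the strand of the word; the UHRF1 words lie before 2 different starts), with genes sorted by log2 ratio. Right, the log2 ratio of L1 over DMSO of the same genes, of which 19 lie below 0.

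The origin licensing genes did not all go the same way. CDT1, CDC6 and 3 of the 6 ORC subunits were lower with L1, and geminin, which inhibits loading, was higher. CDT1, which brings the MCM helicase to origins, had 5124 counts with DMSO and 2996 with L1, and its FPKM was 58.4 and 39.6. Its log2 ratio of -0.56 (95% interval -0.63 to -0.50) was the lowest of the 9 licensing genes. CDC6, the ATPase that works with CDT1, had 3791 counts with DMSO and 2314 with L1, a log2 ratio of -0.50 (-0.57 to -0.42). GMNN encodes geminin, the CDT1 inhibitor that accumulates from S phase until mitosis, and lies on chromosome 6 from 24774931 to 24786099 (GRCh38, GENCODE release 29). It had 2196 counts with DMSO and 2954 with L1, and its FPKM was 27.9 and 43.5. The log2 ratio of GMNN was 0.64 (0.56 to 0.72), 1.56-fold higher in L1, and the intervals of GMNN and CDT1 were far apart.

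Within the origin recognition complex the subunits fell into lower and level ones. ORC1, the subunit whose level varies over the cell cycle, had 5174 counts with DMSO and 3319 with L1, a log2 ratio of -0.43 (-0.49 to -0.36). ORC6 (2623 and 1740 counts, log2 ratio -0.38) and ORC2 (2767 and 1934 counts, log2 ratio -0.30) were also lower, with intervals wholly below 0. ORC4 (2147 and 1955 counts, log2 ratio 0.078) and ORC5 (726 and 615 counts, log2 ratio -0.026) had intervals that included 0. ORC3 had 1602 counts with DMSO and 1501 with L1, a log2 ratio of 0.12 whose interval (0.017 to 0.22) began just above 0. On the FPKM scale ORC1 had the highest level of the 6 subunits in both libraries, 52.1 in DMSO and 38.8 in L1, and ORC5 the lowest, 6.13 and 6.02. Per kilobase of principal transcript, ORC1 (38.1) and ORC6 (38.7) were alike in L1. The 9 licensing genes had a median log2 ratio of -0.30.

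The helicase genes were lower with L1 except for MCM7 and GINS1. MCM2 to MCM7 encode the 6 subunits of the ring that unwinds DNA. MCM3 had the most counts, 24068 with DMSO and 15638 with L1, a log2 ratio of -0.41 (-0.44 to -0.38). MCM4 had 15114 and 9629 counts and the lowest ratio of the ring, -0.44 (-0.47 to -0.40). MCM5 (8187 and 5561 counts, log2 ratio -0.34), MCM2 (9501 and 6626 counts, log2 ratio -0.31) and MCM6 (8966 and 6486 counts, log2 ratio -0.25) lay between. Of the MCM2 exon bases, 23.6% overlap genes on the opposite strand, and with these genes added the log2 ratio was -0.21. MCM7 was level, with 7702 counts with DMSO and 6640 with L1, a log2 ratio of -0.0010 and an interval from -0.049 to 0.047, which does not meet the interval of any other subunit of the ring. The MCM7 gene shares 8.94% of its exon bases with AP4M1 on the opposite strand, but AP4M1 had 226 and 225 counts, and both genes together had a log2 ratio of 0.0054.

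In level, MCM3 stood above the rest of the ring, with an FPKM of 208 in DMSO and 156 in L1, while the other subunits ranged from 35.4 to 68.2 in DMSO and from 27.9 to 57.2 in L1. The gene lengths implied by the deposited FPKM values were 9.79 kb for MCM4 and 7.22 kb for MCM5, longer than their principal transcripts. Per kilobase of the principal protein-coding transcript of GENCODE release 29 (4.18 kb for MCM4 and 3.53 kb for MCM5) and with the same scaling to library size, the subunits ranged from 72.4 (MCM5) to 234 (MCM3) in DMSO and from 57.0 to 177 in L1. On that scale MCM4 was second in both libraries, with 113 in DMSO and 83.4 in L1.

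CDC45 and the 4 GINS genes complete the active helicase, and MCM10 helps to start it. CDC45 had 1774 counts with DMSO and 1208 with L1, a log2 ratio of -0.34 (-0.45 to -0.24), and MCM10 had 2436 and 1842 counts, a log2 ratio of -0.19 (-0.28 to -0.10). GINS1 went the other way and had the highest log2 ratio of the 51 genes. This gene, on chromosome 20 from 25407727 to 25452628, had 631 counts with DMSO and 1122 with L1, and its FPKM was 2.48 and 5.10. Its log2 ratio of 1.04 (0.90 to 1.19) included values under 2-fold. GINS3 (896 and 567 counts, log2 ratio -0.45), GINS2 (1575 and 1189 counts, -0.19) and GINS4 (1762 and 1396 counts, -0.12) were lower. GINS2 overlaps GSE1 on the opposite strand by only 7 bases. Both genes together had a log2 ratio of -0.34, but GSE1 had 2402 counts with DMSO and 1521 with L1, so the sum says little of GINS2 itself. The 4 products form 1 complex with 1 copy of each subunit. Per kilobase of principal transcript, the highest GINS gene was 3.03 times the lowest in DMSO, where GINS1 was lowest with 6.07, and 1.78 times in L1, where GINS3 was lowest with 9.03. No exon of GINS1 overlaps another gene in GENCODE release 29, and 5.39% of its 31-base words occur in transcripts of another gene. The 12 helicase genes had a median log2 ratio of -0.28, and 10 of them had an interval wholly below 0.

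**Figure D3:**
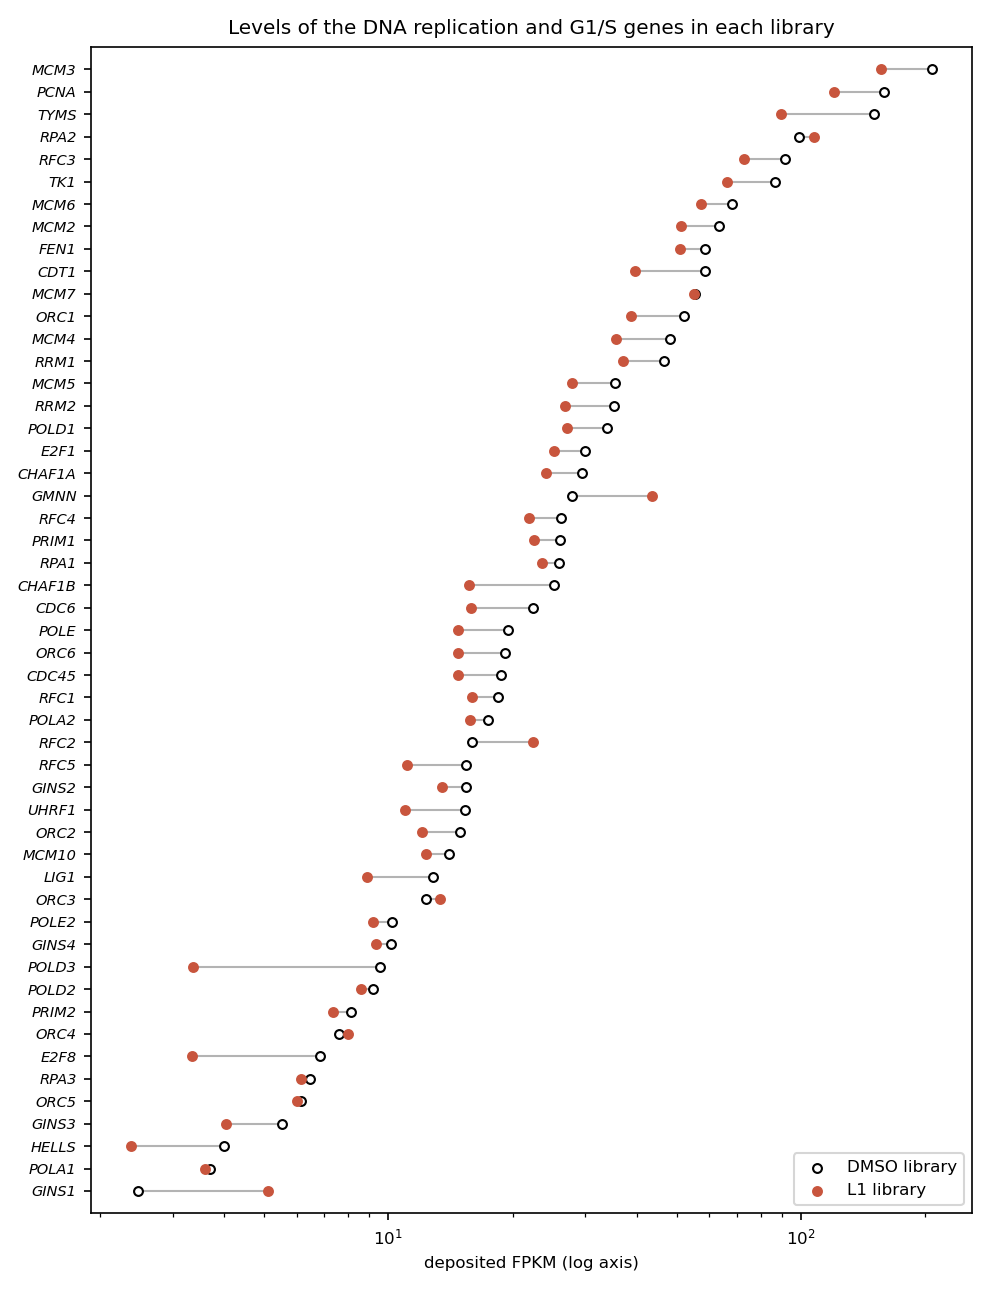
Deposited FPKM (log axis) of each of the 51 genes in the DMSO library (open points) and the L1 library (filled points), sorted by the DMSO value. MCM3 is highest and GINS1 lowest in DMSO, and the filled point lies to the left for all but GINS1, GMNN, RFC2, RPA2, ORC3 and ORC4.

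All 9 polymerase genes had a log2 ratio below 0, but 1 of them differed far more than the rest. POLD3, an accessory subunit of polymerase delta that also serves in break-induced replication, lies on chromosome 11 from 74493851 to 74669117. It had 1668 counts with DMSO and 506 with L1, and its FPKM was 9.54 and 3.35. Its log2 ratio of -1.51 (-1.65 to -1.36), 2.84-fold lower, was the lowest of the 51 genes. The other delta subunits did not show a drop of this size. POLD1, the catalytic subunit, had 5317 counts with DMSO and 3677 with L1, a log2 ratio of -0.32 (-0.38 to -0.26). POLD2, the small structural subunit, had 2330 and 1880 counts, a log2 ratio of -0.097 (-0.18 to -0.0082). Of the POLD3 exons, 2.23% overlap a non-coding gene on the same strand, and with the counts of that gene added the log2 ratio was -1.34.

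Polymerase alpha with primase, which lays down the RNA-DNA primers, was lower by a small amount. PRIM1 (2365 counts with DMSO and 1767 with L1, log2 ratio -0.21), POLA2 (3087 and 2408 counts, -0.15), PRIM2 (1456 and 1138 counts, -0.14) and POLA1 (1824 and 1533 counts, -0.038) made up the complex, and of the 4 intervals only that of POLA1 included 0. The large catalytic subunit of the leading-strand polymerase, POLE, had 7647 counts with DMSO and 4993 with L1, a log2 ratio of -0.40 (-0.45 to -0.35). Its partner POLE2 had 953 and 740 counts, a log2 ratio of -0.15, with an upper bound of -0.012. Of the exon bases of POLA2, 35.1% overlap AP000944.2, annotated as protein-coding on the same strand, so its counts could have been split. AP000944.2 had 3 counts with DMSO and 145 with L1, and both genes together had a log2 ratio of -0.062. The PRIM1 value is uncertain as well, since 14.9% of its exon bases overlap AC117378.1 and 1.35% overlap NACA, both on the same strand. AC117378.1 had 165 counts with DMSO and 62 with L1, a log2 ratio of -1.20. With 3 overlapping genes added the sum had a log2 ratio of 0.23. Most of that sum came from NACA, which had 11915 counts with DMSO and 12811 with L1 and shares only 33 bases with PRIM1, so the sum says little of PRIM1 itself. The median log2 ratio of the 9 polymerase genes was -0.15.

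The sliding clamp and 4 of the 5 clamp loader genes were lower with L1. PCNA, the clamp, had 7108 counts with DMSO and 4633 with L1, an FPKM of 159 and 120, and a log2 ratio of -0.40 (-0.46 to -0.35). RFC1 is the large subunit of the loader, with 3938 and 2939 counts and a log2 ratio of -0.21. Among the small subunits, RFC5 (1590 and 988 counts, log2 ratio -0.47), RFC3 (8305 and 5712 counts, -0.33) and RFC4 (2493 and 1804 counts, -0.25) were lower too. RFC2, a small subunit that sits in the same pentamer, was higher, with 1124 counts with DMSO and 1356 with L1, a log2 ratio of 0.48 (0.37 to 0.60). No exon of RFC2 overlaps another gene, and other genes hold 8.82% of its 31-base words.

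The subunits of the single-strand binding complex RPA differed in direction. RPA1 had 4532 counts with DMSO and 3550 with L1 (log2 ratio -0.14), RPA3 had 663 and 543 (-0.075, with an interval that included 0), and RPA2 had 6233 and 5855 (0.12, interval 0.071 to 0.17). RPA3 shares exon bases with UMAD1 on the opposite strand, and both genes together had a log2 ratio of -0.17. The enzymes that finish Okazaki fragments were lower. LIG1, the ligase that seals nicks, had 4634 counts with DMSO and 2763 with L1, a log2 ratio of -0.53 (-0.60 to -0.46). FEN1, the flap nuclease, had 4088 and 3069 counts, a log2 ratio of -0.20 (-0.27 to -0.13). With the overlapping genes FADS2 and TMEM258 added the log2 ratio was -0.34. Most of that sum came from FADS2, which had 13851 counts with DMSO and 8937 with L1 and shares 49 bases with FEN1.

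The 4 nucleotide synthesis genes were all lower, with a median log2 ratio of -0.39 and every interval wholly below 0. TYMS, thymidylate synthase, differed most. This gene, on chromosome 18 from 657604 to 673578, had 11560 counts with DMSO and 5931 with L1, and its FPKM was 150 and 89.3. Its log2 ratio was -0.75 (-0.80 to -0.70), 1.68-fold lower. Of the TYMS exon bases, 46.6% overlap genes on the opposite strand, mainly ENOSF1, and with these genes added the log2 ratio was -0.66. RRM2, the regulated small subunit of ribonucleotide reductase, had 10248 counts with DMSO and 6724 with L1, a log2 ratio of -0.39 (-0.44 to -0.35). RRM1, the large subunit, had 6251 and 4308 counts (-0.32), and TK1, the thymidine kinase of the salvage pathway, had 5078 and 3353 (-0.39), so the 3 genes lay close together.

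CAF-1 deposits histones behind the fork, and its 2 subunits differed. CHAF1B had 4089 counts with DMSO and 2194 with L1, a log2 ratio of -0.69 (-0.76 to -0.61). CHAF1A had 4063 and 2866 counts, a log2 ratio of -0.29 (-0.36 to -0.22), so their counts were alike in DMSO and their intervals did not meet. CHAF1B shares 1.74% of its exon bases with MORC3 on the same strand, and both genes together had a log2 ratio of -0.28. That sum also holds the RNA of MORC3 itself, which had 2967 counts with DMSO and 2830 with L1.

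The group of transcription and chromatin regulators had the lowest median, -0.62 over 4 genes. E2F8, a repressor of the E2F family that is itself an E2F target, lies on chromosome 11 from 19224063 to 19241620. It had 897 counts with DMSO and 379 with L1, and its FPKM was 6.83 and 3.34. Its log2 ratio was -1.03 (-1.21 to -0.85), so values under 2-fold lie within the interval. E2F1, an activator, had 2560 and 1860 counts and a log2 ratio of only -0.25 (-0.33 to -0.16), which does not meet the interval of E2F8. HELLS, a chromatin remodeler of the SNF2 family, had 1813 counts with DMSO and 929 with L1, a log2 ratio of -0.75 (-0.87 to -0.64). UHRF1, which recruits DNMT1 to hemimethylated DNA, had 2513 and 1549 counts, a log2 ratio of -0.49 (-0.58 to -0.39). For UHRF1, 27.3% of the 31-base words also occur in another gene.

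Other genes of replication and S phase had a smaller median shift in the same direction, but more of them were at least 1.5-fold lower. In a separate list of 68 such genes (kinases, fork protection, nucleotide pools, E2F and retinoblastoma family, histone chaperones), 49 had a log2 ratio below 0 and the median was -0.15. Of all genes kept 50.4% were below 0, and of those with at least 300 counts in both libraries 53.2%. The interval was wholly below 0 for 40 genes and wholly above 0 for 11, beside 28.6% and 26.8% of all genes kept and 37.7% and 31.9% of those with at least 300 counts in both libraries. Of the 68, MMS22L was at least 2-fold lower and none was at least 2-fold higher. The background was 4.83% and 7.12% of all genes kept, and 1.41% and 1.56% at 300 counts, so these counts do not set the list apart. At 1.5-fold, 11 of the 68 were lower and 1 was higher, against 5 and 2 of the 51 genes. The background at 1.5-fold was 11.4% and 13.8% of all genes kept, and 5.31% and 4.80% at 300 counts. MMS22L, which acts with TONSL at stalled forks, had 2015 counts with DMSO and 848 with L1, a log2 ratio of -1.03. DNA2, a nuclease and helicase of flap processing, followed with 1938 and 896 counts and a log2 ratio of -0.90. At the other end stood POLD4, the smallest delta subunit (201 and 285 counts, log2 ratio 0.71), E2F4, a repressive E2F of resting cells (1986 and 2402 counts, 0.49), and RRM2B, the p53-inducible reductase subunit (1423 and 1661 counts, 0.44). Polymerase delta thus held both the lowest of the 51 genes, POLD3, and the highest of this list, POLD4.

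Mitosis genes were read beside the replication genes because the study also examined the cell cycle by flow cytometry. Of 35 listed, 34 had enough counts, and they were spread to both sides, with a median log2 ratio of 0.0048 and 17 on each side of 0. Of all genes kept, 50.4% were below 0. The interval was wholly above 0 for 16 genes and wholly below 0 for 15, beside the same background of 26.8% and 28.6% (31.9% and 37.7% at 300 counts). With DESeq2 size factors the median of the mitosis genes was -0.026. The highest were KIF20A, a kinesin of cytokinesis (2578 counts with DMSO and 3776 with L1, log2 ratio 0.76), CCNB1, cyclin B1 (3170 and 4624 counts, 0.76), and CDC20, the activator of the anaphase-promoting complex (5290 and 7547 counts, 0.73). The lowest were CDC25B, a phosphatase that activates CDK1 (1265 and 625 counts, -0.80), TOP2A, topoisomerase II alpha (27005 and 13486 counts, -0.79), and UBE2C, a ubiquitin-conjugating enzyme of mitosis (1522 and 875 counts, -0.58). None of the 34 was past 2-fold, beside 1.41% lower and 1.56% higher among genes with at least 300 counts in both libraries.

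**Figure D4:**
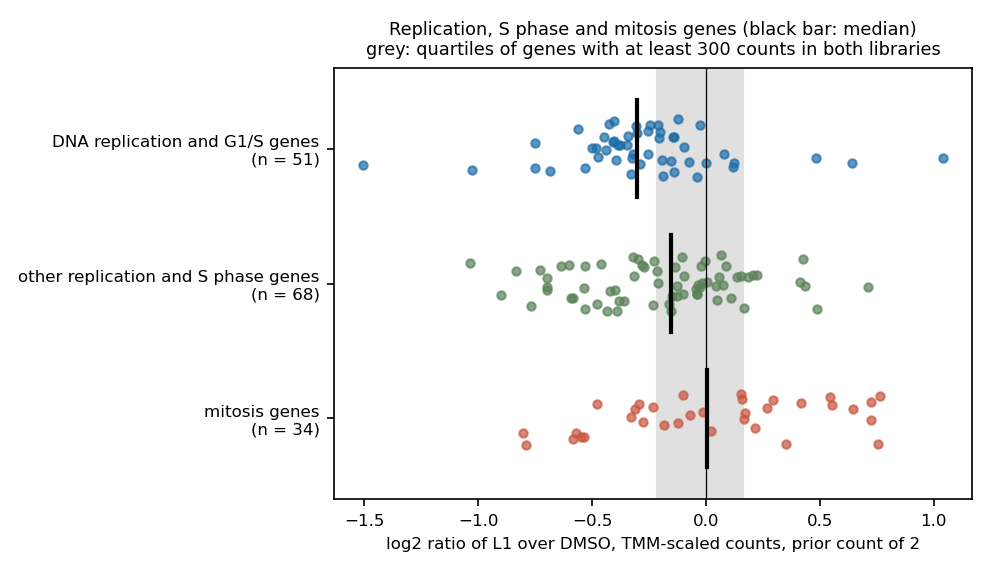
Log2 ratio of L1 over DMSO (prior count of 2) for the 51 replication and G1/S genes, the 68 other replication and S phase genes and the 34 mitosis genes, 1 point per gene, with black bars for the medians (-0.30, -0.15 and 0.0048). Grey marks the quartiles of the genes with at least 300 counts in both libraries, -0.21 to 0.16.

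The choice of scaling moves all ratios together. Scaled by GAPDH, the reference gene of the RT-qPCR in the study, all ratios moved up by 0.15, the median of the 51 genes was -0.16 and 36 of them stayed below 0. With total counts and with the upper quartile, 42 of the 51 were below 0. Measured from the median of the genes with at least 300 counts in both libraries, a difference that scaling cannot alter, the median of the 51 genes stood at -0.28 and 44 of the 51 were below. Genes with little overlap were lower as well. The 27 members whose exons overlap no other gene had a median of -0.25, with 22 below 0, and the 27 members with under 5% shared words had a median of -0.32, with 26 below 0.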

How the data were processed

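HEL cells with DMSO or L1 gave 1 RNA library each. The methods state alignment with HISAT2 2.1.0, and the submitters' processing notes also name fastp 2.0, StringTie and hg38. The counting program, annotation and strand setting are not given in the sources used here. The authors deposited raw read counts per Ensembl gene and FPKM values for 13924 genes. The deposited FPKM values equal the counts divided by a gene length and a library size, with a library ratio of 1.16 (DMSO over L1), so they add no independent measurement.

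Counts were scaled by TMM in edgeR 4.0.16 (R 4.3.3), with DESeq2 1.42.0 size factors, total counts, upper quartile and GAPDH as alternatives. Python 3.11.15, numpy 2.4.6, pandas 2.3.3 and scipy 1.17.1 gave the rest. Log2 ratios of lists, and of the named genes of the other lists, used a prior count of 2 and genes that reached 10 counts in either library; single members have no prior and an exact 95% Clopper-Pearson interval. PCR duplicates are not marked by molecular identifiers, so intervals cover counting error only. Scripts were tested on simulated libraries. GENCODE release 29 holds 58254 of the 61806 identifiers and gave positions, overlaps and shared 31-base words. Promoter windows are from RefSeq.

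The members, the other lists and the rules were chosen with earlier results of these data known. Every member is named; of each other list, the 3 lowest and 3 highest genes with at least 100 counts and any past 2-fold are named, except 1 gene that is not reported here.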

Additional observations from a re-analysis of the deposited data

How the results depend on the processing

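No paired analysis was possible because the DMSO and L1 groups hold 1 library each. The median of the 51 genes was -0.25 with total counts, -0.33 with DESeq2 size factors, -0.26 with upper quartile and -0.28 with log2(FPKM + 1). GAPDH scaling moved the median of the 51 genes to -0.16 and turned 9 genes from below to above 0, since it adds 0.15 to every ratio. Of these, GINS4 (0.023), POLA2 (0.00022), PRIM2 (0.0031), POLD2 (0.049) and RPA1 (0.0063) had an interval wholly below 0 before, and MCM7 (0.14), ORC5 (0.12), POLA1 (0.11) and RPA3 (0.071) had one that included 0. Of 255 values of single genes under other scalings, 192 stayed within the counting interval.

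At least 2-fold lower genes among the 51 numbered 1 in place of 2 with total counts, upper quartile and log2(FPKM + 1), since E2F8 lies near the threshold, and log2(FPKM + 1) left 0 at least 2-fold higher. At 1.5-fold there were 2 higher and 5 lower. Over all genes, 1290 higher and 876 lower became 199 and 153 with log2(FPKM + 1), 3544 and 1811 with no minimum count, 694 and 491 where each library had to reach 10 counts, 2506 and 2065 at 1.5-fold, and 688 and 502 with protein-coding genes only. A minimum of 300 counts in both libraries, chosen after seeing the data, gave 145 and 131. The comparison with the genes of at least 300 counts and the members with little shared sequence were also added after seeing the data. With 1 library per condition, variation between cultures cannot be told apart from the treatment.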

Other observations

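Several of the replication genes share a promoter region with a gene that points the other way. In GENCODE release 29, 14 of the 51 genes have a protein-coding neighbour on the opposite strand whose start lies within 1000 bases in a divergent arrangement or overlaps slightly, and 12 of these neighbours had at least 10 counts. The replication gene had the lower log2 ratio in 11 of the 12 pairs. Since 44 of the 51 genes lay below the median of genes with at least 300 counts in both libraries, this count says little of the pairing itself. The median was -0.39 for the 12 replication genes and 0.064 for their neighbours, 5 of which were below 0. The counting intervals of both genes of a pair did not meet in 9 pairs.

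MCM4 and PRKDC, which encodes the catalytic subunit of DNA-dependent protein kinase, start 2 bases apart. PRKDC had 22407 counts with DMSO and 17996 with L1, a log2 ratio of -0.10, against -0.44 for MCM4. MCM2 and TPRA1 overlap at their starts by 45 bases, and TPRA1 had 719 counts with DMSO and 963 with L1, a log2 ratio of 0.63, against -0.31 for MCM2. CDC45 and UFD1, a cofactor of the segregase VCP, start 244 bases apart, and UFD1 had 2013 and 2131 counts, a log2 ratio of 0.30, against -0.34 for CDC45. ORC3 was the exception in direction, with 0.12 against -0.024 for RARS2, the mitochondrial arginyl-tRNA synthetase. PCNA and CDS2 (-0.40 and -0.30) and LIG1 and ZSWIM9 (-0.53 and -0.42) were lower together. These pairs were listed after the values of the replication genes were known, and the numbers describe 2 libraries without replicates.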
